A study of Mus musculus with 16 samples.

Results

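Reactive astrocyte genes are transcripts that astrocytes are known to raise when the brain is injured or inflamed. A list of 31 such genes was followed here in whole mouse brain after stroke: 10 genes of the A2 class, 7 genes of the A1 class, and 14 pan-reactive or otherwise astrocytic genes. The genes were chosen by name from the published classes and from astrocyte biology, with earlier results of these data known. A gene was measured by the probe set whose only annotated symbol is that gene, or by the one with the highest mean where several exist. This gave 29 of 31 genes among 19938 genes in all: 14 pan-reactive or astrocytic, 5 A1 and 10 A2. H2-T23 shares its probe set with a second gene and Ggta1 was not matched, so both are not analysed here.

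Astrocytes answer injury by enlarging, building intermediate filaments and secreting protease inhibitors, matrix proteins and immune mediators. Cytokines of the interleukin-6 family drive much of this through the receptor subunits gp130 and Osmr and the transcription factor Stat3. The A1 class was named from astrocytes of mice given bacterial endotoxin and the A2 class from astrocytes after occlusion of a cerebral artery, while pan-reactive genes respond to both. In whole-brain RNA a gene of these lists is not read from astrocytes alone: Cd14, Srgn and Cd44 are also made by microglia and infiltrating leukocytes, and Tm4sf1 and Emp1 by endothelial cells.

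The data are 16 Affymetrix Mouse Gene 1.0 ST arrays of whole brain from male mice of 8 weeks, 4 in each group. The groups are mice labelled as TNF knockout 24 h after permanent middle cerebral artery occlusion, naive mice with that label, C57BL/6 mice 24 h after the same occlusion, and naive C57BL/6 mice. Permanent occlusion models an ischaemic stroke without reperfusion. No group had a sham operation, and surgery therefore cannot be told apart from occlusion in any stroke comparison. The labels do not say which knockout allele was used, on which background it was kept, or whether every array came from its own mouse. P-values therefore measure the spread between these samples, which may in part be technical.

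Deposited log2 values spanned 1.42 to 14.53. Array medians were 6.01 to 6.05, with correlations of 0.991 to 0.996 between arrays of 1 group. The number of arrays limits the precision. Changes are log2 differences ± SE from limma, the moderated linear model used throughout. P-values were adjusted over all 19938 genes of a comparison, and an adjusted p under 0.05 is the threshold. Tnf, the targeted gene, was higher and not lower in the arrays labelled TNF knockout, by 1.24 ± 0.14 (adjusted p = 0.0001) after stroke and by 1.11 ± 0.14 (adjusted p = 0.000558) in naive mice. The sources used here do not say whether its probe set lies inside the deleted part. The sample names carry a prefix of unstated meaning: KL42 covers all C57BL/6 arrays, so prefix and genotype label cannot be told apart, and KL76 and KL82 split the other label (naive 1 to 3 and stroke 1 against naive 4 and stroke 2 to 4). As whole tissue was measured, fewer cells of a type and less RNA per cell cannot be told apart. The 16 resting astrocyte markers, among them Aqp4, Aldh1l1, Slc1a2 and Glul, had mean log2 values of 9.92 to 10.12 in every array, so the markers of the cell type named by the list were bright throughout.

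Promoters of 4 genes that rose in both genotype labels are shown first, since they carry the upstream regions of the filament, inhibitor and crosslinking genes described next. They run from 250 bases before to 50 bases after the annotated start, 5′ to 3′ on the strand of the gene, and come from RefSeq on GRCm38.p6. Capitals mark matches to the STAT motif TTCNNNGAA, the NF-kB motif (GGG, any 2 bases, TTTCC) or the interferon-response motif (GAAA, any 2 bases, GAAA), each searched on both strands. Gfap lies on the minus strand (chr11:102897151-102897450), Vim on the plus strand (chr2:13574061-13574360), Serpina3n on the plus strand (chr12:104406458-104406757) and Tgm1 on the minus strand (chr14:55713443-55713742).
Gfap: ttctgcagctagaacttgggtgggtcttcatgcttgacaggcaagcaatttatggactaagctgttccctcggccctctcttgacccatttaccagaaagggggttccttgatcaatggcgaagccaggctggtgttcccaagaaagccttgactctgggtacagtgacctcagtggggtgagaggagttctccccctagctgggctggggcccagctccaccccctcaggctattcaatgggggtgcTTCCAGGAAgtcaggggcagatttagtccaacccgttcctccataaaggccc
Vim: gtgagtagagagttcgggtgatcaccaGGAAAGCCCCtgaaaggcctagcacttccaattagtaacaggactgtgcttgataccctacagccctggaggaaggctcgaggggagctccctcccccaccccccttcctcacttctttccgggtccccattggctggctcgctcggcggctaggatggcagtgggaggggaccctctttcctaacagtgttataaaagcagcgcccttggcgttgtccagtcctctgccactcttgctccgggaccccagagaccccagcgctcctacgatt
Serpina3n: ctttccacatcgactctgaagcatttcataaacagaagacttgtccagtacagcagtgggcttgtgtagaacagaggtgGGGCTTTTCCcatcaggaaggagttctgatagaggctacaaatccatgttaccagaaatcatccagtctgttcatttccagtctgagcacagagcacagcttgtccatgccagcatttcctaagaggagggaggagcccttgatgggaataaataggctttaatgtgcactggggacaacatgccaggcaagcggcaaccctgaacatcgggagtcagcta
Tgm1: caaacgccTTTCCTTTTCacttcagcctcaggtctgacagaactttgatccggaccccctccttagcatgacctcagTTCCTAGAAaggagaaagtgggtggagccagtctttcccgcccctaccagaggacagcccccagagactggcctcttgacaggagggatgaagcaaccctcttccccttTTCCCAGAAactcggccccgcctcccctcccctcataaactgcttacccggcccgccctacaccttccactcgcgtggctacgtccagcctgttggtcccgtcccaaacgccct
The Gfap window holds 1 STAT match and the Tgm1 window shown 2, and this Tgm1 window also holds 1 interferon-response match. A second Tgm1 window (chr14:55713039-55713338) holds no match. The Serpina3n and Vim windows hold 1 NF-kB match each. Of the 8 genes that rose in both labels, the 4 shown are those with a STAT match (2 genes) or an NF-kB match (2 genes). Among the rest of the 8, Cd44 and Ptx3 had no match, and Srgn and Tm4sf1 had an interferon-response match alone. A promoter window was available for 24 of the 29 genes, in 33 windows. The STAT motif occurred in 6 of the 33 windows (5 genes, Emp1, Gfap, Sphk1, Steap4 and Tgm1), against 8.30% of all 32851 windows of that length. The NF-kB motif occurred in 3 windows (Serpina3n, Steap4 and Vim), against 1.63% of all windows. The interferon-response motif occurred in 4 (Fbln5, Srgn, Tgm1 and Tm4sf1), against 3.44%, and the AP-1 motif TGANTCA in 4 windows of 3 genes (Cp, Emp1 and Sphk1), against 7.81%. Overlapping windows of Sphk1 hold the same STAT site and the same AP-1 site, so these sites count more than once. A match describes letters in a window and no binding was measured.

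The comparison of stroke with naive brain asks which of these genes respond to the occlusion. With the change averaged over both genotype labels, 16 of 29 genes rose and 1 fell (2.80% of all genes passed in that fit, 1.78% higher and 1.03% lower). Serpina3n and Ptx3 had the largest changes on the list, at 1.78 ± 0.14 (adjusted p = 3.2e-07) and 1.64 ± 0.18 (adjusted p = 2e-05), ranks 6 and 8 among all increases. Fabp7 was the gene that fell. The median change over the 29 genes was 0.37, against 0.0 over all genes. In the arrays labelled TNF knockout 10 of 29 rose and Fabp7 fell (0.642% of all genes passed, 0.537% higher and 0.105% lower), and in C57BL/6 mice 11 of 29 rose and 0 fell (1.68% of all genes passed, 1.34% higher and 0.336% lower). The same 8 genes rose past the threshold in both labels: Cd44, Serpina3n, Vim, Gfap, Srgn, Tgm1, Ptx3 and Tm4sf1 (0.291% of all genes did so). Single arrays moved these counts: 7 genes passed without stroke array 4 of those labelled TNF knockout, and 7 passed without C57BL/6 stroke array 3. Calls over all genes also fell in these fits, from 128 to 69 and from 334 to 107.

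**Figure D1:**
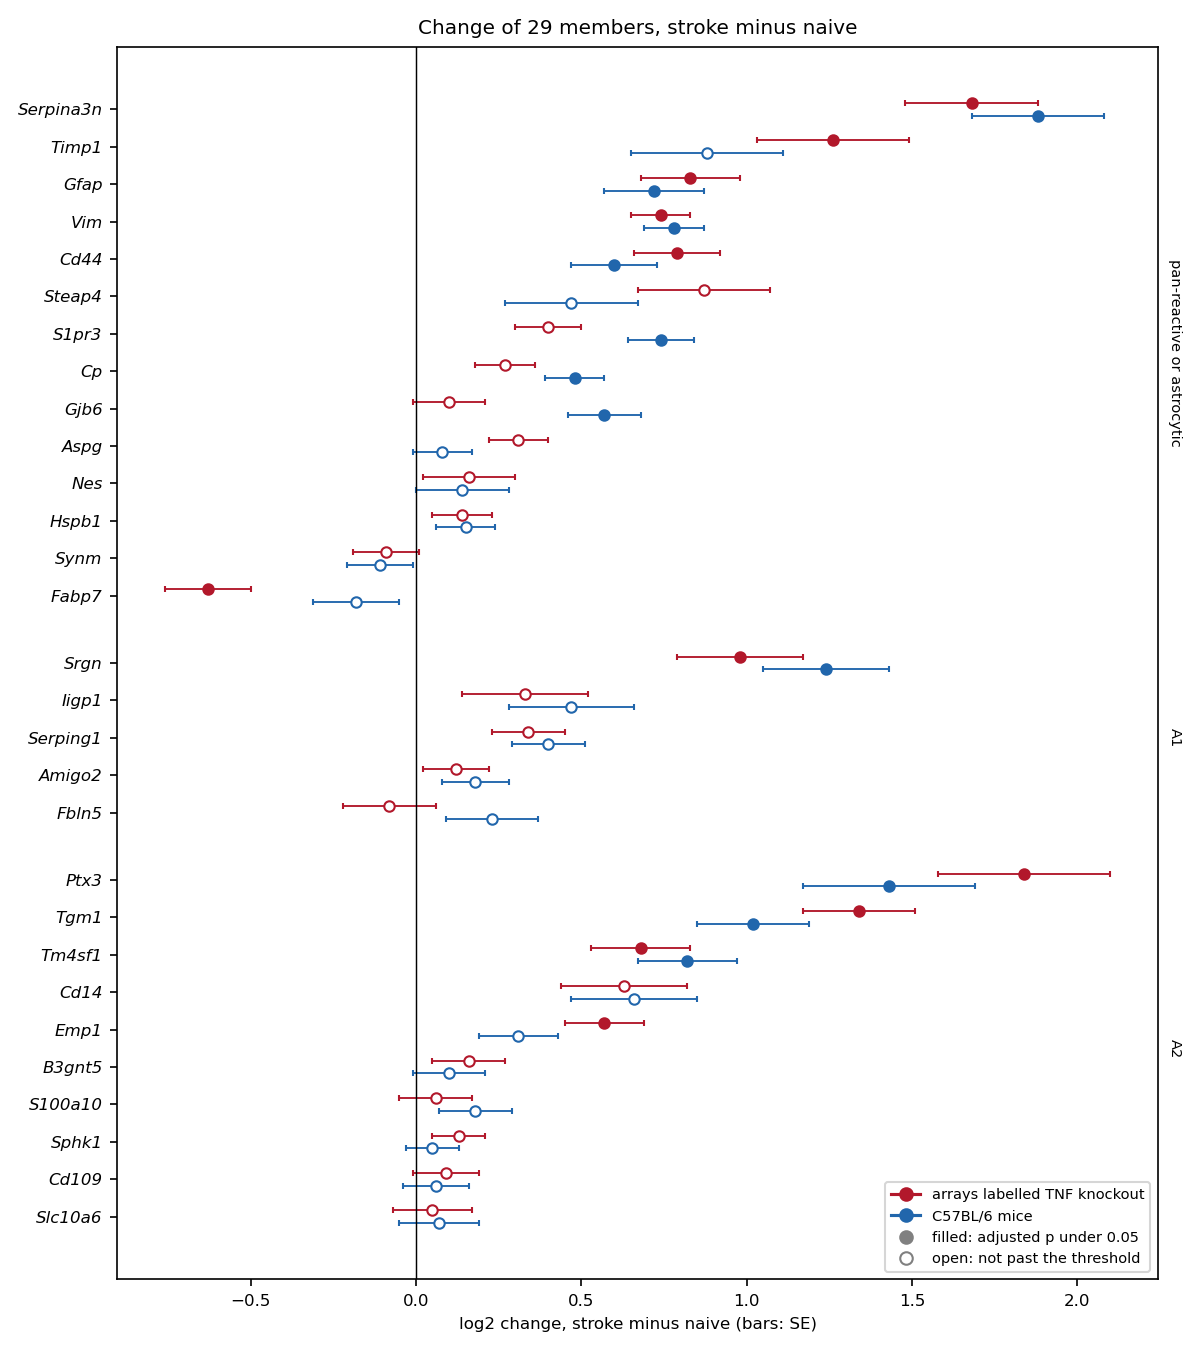
Log2 change, stroke minus naive brain, for the 29 measured genes, in arrays labelled TNF knockout (red, upper point) and in C57BL/6 mice (blue, lower point), with bars for the SE of limma and filled points for adjusted p under 0.05 (4 arrays per group). Serpina3n, Timp1, Srgn, Ptx3 and Tgm1 lie farthest to the right, with log2 changes from 0.88 to 1.88, and Fabp7 lies farthest to the left.

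Of 4 intermediate filament genes, Vim and Gfap rose and Nes and Synm did not pass. Vim encodes vimentin, the filament of reactive and immature astrocytes. Vim read 9.27, 9.44, 9.26 and 9.14 in stroke arrays labelled TNF knockout, against 8.58, 8.51, 8.55 and 8.49 in naive arrays with that label. Vim in C57BL/6 mice read 9.04, 9.33, 9.49 and 9.21 after stroke, against 8.52, 8.43, 8.49 and 8.53 in naive mice. Every stroke array lay above every naive array, in both labels, and the spread within a group was small. Vim rose by 0.74 ± 0.09 (adjusted p = 0.000103) in the arrays labelled TNF knockout and by 0.78 ± 0.09 (adjusted p = 9e-05) in C57BL/6 mice, and both calls held in all 16 fits that left out 1 array.

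Gfap encodes the glial fibrillary acidic protein, the defining filament of reactive astrocytes. Gfap read 8.49, 9.19, 8.95 and 8.78 in stroke arrays labelled TNF knockout, against 8.01, 7.77, 8.23 and 8.09 in naive arrays with that label. Gfap in C57BL/6 mice read 8.62, 9.10, 9.30 and 9.09 after stroke, against 8.16, 8.23, 8.31 and 8.53 in naive mice. The stroke arrays lay above the naive arrays in both labels, and in each stroke group array 1 was the lowest. Gfap rose by 0.83 ± 0.15 (adjusted p = 0.00705) in the arrays labelled TNF knockout and by 0.72 ± 0.15 (adjusted p = 0.0154) in C57BL/6 mice. The first call was lost when the prefix was fitted (0.69, adjusted p = 0.0844), with changes of 0.49 within KL76 and 0.88 within KL82. The C57BL/6 call was lost without naive array 1 (adjusted p = 0.0558) and without stroke array 2 or 3 (adjusted p = 0.0507 and 0.0690). Averaged over both labels Gfap rose by 0.77 ± 0.10 (adjusted p = 0.000139), a call held in all 16 fits that left out 1 array.

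Nes, the filament nestin of neural progenitors and reactive astrocytes, and Synm, the filament linker synemin, did not pass. Nes read 5.30, 5.79, 5.20 and 5.29 in stroke arrays labelled TNF knockout, against 5.29, 5.13, 5.25 and 5.25 in naive arrays with that label. Nes in C57BL/6 mice read 5.55, 5.51, 5.29 and 5.29 after stroke, against 5.04, 5.06, 5.21 and 5.79 in naive mice. The groups overlap, and the highest values of Nes came from 1 stroke array labelled TNF knockout and 1 naive C57BL/6 array. Averaged over both labels Nes differed by 0.15 ± 0.10 (adjusted p = 0.503) with a 95% interval of -0.06 to 0.36, and Synm by -0.10 ± 0.07 (adjusted p = 0.528) with an interval of -0.24 to 0.05. A change of the size seen in Vim lies outside both intervals, as read on these arrays. Nes read below the array medians on all arrays, and whether its readings lay above background was not tested.

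Serpina3n, a secreted inhibitor of serine proteases, had the largest averaged change of the list. Serpina3n read 10.19, 9.32, 9.38 and 9.37 in stroke arrays labelled TNF knockout, against 7.61, 7.82, 8.03 and 8.06 in naive arrays with that label. Serpina3n in C57BL/6 mice read 8.74, 9.62, 9.96 and 9.42 after stroke, against 7.41, 7.50, 7.64 and 7.65 in naive mice. Every stroke reading lay above every naive reading. Serpina3n rose by 1.68 ± 0.20 (adjusted p = 0.000124) in the arrays labelled TNF knockout, a 3.22-fold change, and by 1.88 ± 0.20 (adjusted p = 5e-05) in C57BL/6 mice, a 3.69-fold change. The change was 2.37 within KL76, where stroke array 1 read 10.19, and 1.30 within KL82. It passed in all 16 fits that left out 1 array, with changes from 1.48 to 1.77 in the arrays labelled TNF knockout and from 1.71 to 2.12 in C57BL/6 mice.

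Timp1 encodes an inhibitor of matrix metalloproteinases. Timp1 read 5.76, 6.27, 6.51 and 6.74 in stroke arrays labelled TNF knockout, against 5.15, 4.92, 5.04 and 5.14 in naive arrays with that label. Timp1 in C57BL/6 mice read 5.63, 6.01, 6.81 and 5.58 after stroke, against 5.52, 4.74, 5.39 and 4.86 in naive mice. The groups do not overlap in either label, although the C57BL/6 stroke arrays ranged widely, with array 3 far above the others. Timp1 rose by 1.26 ± 0.23 (adjusted p = 0.0105) in the arrays labelled TNF knockout. That call was lost without stroke array 4 (1.12, adjusted p = 0.0529) and when the prefix was fitted (1.04, adjusted p = 0.113), with changes of 0.72 within KL76 and 1.37 within KL82. In C57BL/6 mice the change of 0.88 ± 0.23 (adjusted p = 0.0616) did not pass. Averaged over both labels Timp1 rose by 1.07 ± 0.16 (adjusted p = 0.000682). Serping1, the C1 inhibitor of complement and the contact system and an A1 gene, passed in the averaged fit alone, where it rose by 0.37 ± 0.08 (adjusted p = 0.00817). Serping1 read 7.26, 7.35, 7.32 and 7.12 in stroke arrays labelled TNF knockout, against 7.10, 6.79, 6.95 and 6.84 in naive arrays with that label. Serping1 in C57BL/6 mice read 6.81, 7.02, 7.10 and 7.39 after stroke, against 6.73, 6.51, 6.72 and 6.75 in naive mice. Its stroke arrays lay above its naive arrays in both labels.

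Cd44 is a receptor for the matrix sugar hyaluronan. Cd44 read 6.05, 6.14, 6.24 and 6.30 in stroke arrays labelled TNF knockout, against 5.31, 5.33, 5.52 and 5.42 in naive arrays with that label. Cd44 in C57BL/6 mice read 5.50, 5.93, 6.38 and 5.70 after stroke, against 5.27, 5.26, 5.41 and 5.18 in naive mice. No stroke array fell among the naive arrays of its label, and C57BL/6 stroke array 3 was again the highest of its group. Cd44 rose by 0.79 ± 0.13 (adjusted p = 0.00349) in the arrays labelled TNF knockout and by 0.60 ± 0.13 (adjusted p = 0.0234) in C57BL/6 mice. The C57BL/6 call was lost in 5 of 16 fits that left out 1 array: naive array 1 (adjusted p = 0.0573), 2 (0.0599) or 4 (0.0653), or stroke array 2 (0.0645) or 3 (0.0618). It was lost as well with only the groups compared (adjusted p = 0.109).

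Tgm1 encodes a transglutaminase that crosslinks proteins and is an A2 gene. Tgm1 read 6.37, 7.11, 6.34 and 6.48 in stroke arrays labelled TNF knockout, against 5.25, 5.31, 5.31 and 5.06 in naive arrays with that label. Tgm1 in C57BL/6 mice read 6.24, 6.86, 6.96 and 6.26 after stroke, against 5.60, 5.70, 5.39 and 5.56 in naive mice. The stroke readings of both labels lay at 6.24 or above and the naive readings at 5.70 or below. Tgm1 rose by 1.34 ± 0.17 (adjusted p = 0.000148) in the arrays labelled TNF knockout and by 1.02 ± 0.17 (adjusted p = 0.00268) in C57BL/6 mice, and passed in all 16 fits that left out 1 array in each label. Fbln5, an elastic fibre protein and A1 gene, did not pass, at -0.08 ± 0.14 (adjusted p = 0.957) and 0.23 ± 0.14 (adjusted p = 0.428).

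Tm4sf1, a tetraspanin-like membrane protein and A2 gene, rose in both labels. Tm4sf1 read 7.22, 7.48, 7.58 and 7.56 in stroke arrays labelled TNF knockout, against 6.59, 6.60, 6.97 and 6.95 in naive arrays with that label. Tm4sf1 in C57BL/6 mice read 6.91, 7.70, 7.45 and 7.83 after stroke, against 6.58, 6.50, 6.78 and 6.73 in naive mice. In each label the stroke arrays lay above the naive arrays, with array 1 the lowest of both stroke groups. Its changes were 0.68 ± 0.15 (adjusted p = 0.0418) in the label TNF knockout and 0.82 ± 0.15 (adjusted p = 0.00834) in C57BL/6 mice. The first of these passed in 7 of 16 fits that left out 1 array. It was lost without array 1, 2 or 4 of the naive arrays labelled TNF knockout (adjusted p = 0.177, 0.174 and 0.0505), without array 2, 3 or 4 of the stroke arrays with that label (0.101, 0.151 and 0.141), and without C57BL/6 naive array 1 or 4 or stroke array 3 (0.0525, 0.0547 and 0.0502). It was lost as well when the prefix was fitted (0.55, adjusted p = 0.307). The second passed in all 16.

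Emp1, an epithelial membrane protein gene of the A2 class, rose in the averaged fit (0.44 ± 0.08, adjusted p = 0.00447). Emp1 read 5.68, 5.66, 5.86 and 5.87 in stroke arrays labelled TNF knockout, against 5.48, 4.97, 5.43 and 4.91 in naive arrays with that label. Emp1 in C57BL/6 mice read 5.52, 5.74, 5.77 and 5.66 after stroke, against 5.55, 5.29, 5.32 and 5.29 in naive mice. Stroke and naive arrays separate in the label TNF knockout, whereas naive C57BL/6 array 1 reached the stroke range. Emp1 rose by 0.57 ± 0.12 (adjusted p = 0.0234) in the arrays labelled TNF knockout and differed by 0.31 ± 0.12 (adjusted p = 0.185) in C57BL/6 mice, which did not pass. The first call was lost without naive array 2 (adjusted p = 0.115) or 4 (0.0836), without stroke array 3 (0.0998) or 4 (0.0929), with quantile normalization (0.0611) and with only the groups compared (0.0879).

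Among genes of innate immunity, Ptx3, a secreted pentraxin that opsonises pathogens and debris and an A2 gene, changed most. Ptx3 read 5.85, 6.25, 6.80 and 6.11 in stroke arrays labelled TNF knockout, against 4.45, 4.16, 4.56 and 4.47 in naive arrays with that label. Ptx3 in C57BL/6 mice read 5.06, 6.77, 6.70 and 5.91 after stroke, against 4.61, 4.82, 4.67 and 4.61 in naive mice. The groups do not overlap, but C57BL/6 stroke array 1 lay only just above its naive group. Ptx3 rose by 1.84 ± 0.26 (adjusted p = 0.000663) in the arrays labelled TNF knockout, a 3.59-fold change, and by 1.43 ± 0.26 (adjusted p = 0.00761) in C57BL/6 mice, a 2.70-fold change. Both calls held in all 16 fits that left out 1 array.

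Srgn encodes serglycin, the proteoglycan core of secretory granules, and is an A1 gene. Srgn read 8.91, 8.42, 8.78 and 8.36 in stroke arrays labelled TNF knockout, against 7.53, 7.71, 7.68 and 7.62 in naive arrays with that label. Srgn in C57BL/6 mice read 8.17, 8.82, 9.53 and 8.55 after stroke, against 7.43, 7.57, 7.58 and 7.52 in naive mice. Naive readings lay between 7.43 and 7.71 in both labels, and all stroke readings lay at 8.17 or above. Srgn rose by 0.98 ± 0.19 (adjusted p = 0.0134) in the arrays labelled TNF knockout and by 1.24 ± 0.19 (adjusted p = 0.00152) in C57BL/6 mice. The first call was lost without naive array 1 (adjusted p = 0.0580) and without stroke array 1 or 3 (0.0595 and 0.0596).

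Cd14, the co-receptor for bacterial lipopolysaccharide and an A2 gene, passed in the averaged fit alone. Cd14 read 5.63, 5.22, 5.07 and 5.06 in stroke arrays labelled TNF knockout, against 4.57, 4.77, 4.66 and 4.47 in naive arrays with that label. Cd14 in C57BL/6 mice read 5.09, 5.93, 6.21 and 5.31 after stroke, against 5.07, 5.19, 5.06 and 4.60 in naive mice. In C57BL/6 mice the groups overlap, since stroke array 1 read less than naive array 2. The averaged change was 0.64 ± 0.14 (adjusted p = 0.0115). Iigp1, an interferon-inducible GTPase gene of the A1 class, read below the array medians on all arrays and did not pass (0.40 ± 0.13 (adjusted p = 0.115) averaged over both labels). Iigp1 read 3.79, 3.73, 4.07 and 4.80 in stroke arrays labelled TNF knockout, against 3.61, 3.79, 3.61 and 4.05 in naive arrays with that label. Iigp1 in C57BL/6 mice read 4.54, 3.90, 4.07 and 4.0 after stroke, against 3.93, 3.60, 3.61 and 3.50 in naive mice. Each stroke group held 1 array above the rest, array 4 in the label TNF knockout and array 1 in C57BL/6 mice.

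Of the sphingosine 1-phosphate pair, S1pr3 passed the threshold and Sphk1 did not. S1pr3 encodes a receptor for this lipid and Sphk1 the kinase that makes it. S1pr3 read 6.44, 6.63, 6.46 and 6.63 in stroke arrays labelled TNF knockout, against 5.95, 6.0, 6.36 and 6.24 in naive arrays with that label. S1pr3 in C57BL/6 mice read 6.39, 6.76, 6.58 and 6.46 after stroke, against 5.84, 5.68, 5.86 and 5.85 in naive mice. The stroke arrays lay above the naive arrays in both labels. S1pr3 rose by 0.74 ± 0.10 (adjusted p = 0.000399) in C57BL/6 mice, and its change of 0.40 ± 0.10 (adjusted p = 0.088) in the arrays labelled TNF knockout did not pass. The difference of the 2 changes was -0.34 ± 0.14 (adjusted p = 0.627), so the responses were not shown to differ. Averaged over both labels S1pr3 rose by 0.57 ± 0.07 (adjusted p = 5.9e-05), whereas Sphk1 differed by 0.09 ± 0.06 (adjusted p = 0.474) with a 95% interval of -0.03 to 0.21.

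Cp and Steap4, genes of metal handling, rose in the averaged fit. Cp encodes ceruloplasmin, a ferroxidase that lets iron leave cells. Cp read 7.24, 7.13, 7.17 and 7.17 in stroke arrays labelled TNF knockout, against 6.74, 6.99, 7.0 and 6.92 in naive arrays with that label. Cp in C57BL/6 mice read 6.89, 7.08, 7.36 and 7.03 after stroke, against 6.53, 6.67, 6.73 and 6.53 in naive mice. In both labels the stroke arrays lay above the naive arrays. Cp rose by 0.48 ± 0.09 (adjusted p = 0.0124) in C57BL/6 mice. That call was lost without stroke array 3 (0.39, adjusted p = 0.0550) and with only the groups compared (adjusted p = 0.0754). In the arrays labelled TNF knockout the change was 0.27 ± 0.09 (adjusted p = 0.352), not past the threshold, and averaged over both labels Cp rose by 0.37 ± 0.07 (adjusted p = 0.00277).

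Steap4, a metalloreductase gene, passed in the averaged fit alone, at 0.67 ± 0.14 (adjusted p = 0.0136). Steap4 read 5.69, 4.74, 5.75 and 5.95 in stroke arrays labelled TNF knockout, against 4.58, 4.52, 4.60 and 4.94 in naive arrays with that label. Steap4 in C57BL/6 mice read 5.32, 5.31, 5.61 and 4.93 after stroke, against 5.11, 4.42, 4.99 and 4.78 in naive mice. Stroke array 2 of those labelled TNF knockout read below naive array 4, and C57BL/6 stroke array 4 fell among the naive arrays.

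Of the other astrocyte genes, Fabp7 fell and Gjb6 rose in the averaged fit. Fabp7 encodes a fatty acid binding protein made by radial glia and astrocytes. Fabp7 read 7.13, 7.34, 7.55 and 7.31 in stroke arrays labelled TNF knockout, against 7.80, 7.98, 7.94 and 8.12 in naive arrays with that label. Fabp7 in C57BL/6 mice read 7.47, 8.07, 7.81 and 8.18 after stroke, against 7.97, 8.04, 7.90 and 8.34 in naive mice. In the arrays labelled TNF knockout every stroke reading lay below every naive reading, whereas the C57BL/6 groups overlap. Fabp7 fell by 0.63 on the log2 scale in the arrays labelled TNF knockout (SE 0.13, adjusted p = 0.0301), rank 7 among all decreases. That call was lost without stroke array 1, 2 or 4 of this label (adjusted p = 0.121, 0.0726 and 0.0915) and without naive array 2, 3 or 4 (0.0944, 0.0789 and 0.0916). It passed when the prefix was fitted (-0.75, adjusted p = 0.0274), with changes of -0.78 within KL76 and -0.72 within KL82. In C57BL/6 mice the change was -0.18 ± 0.13 (adjusted p = 0.516), and the difference of the changes was -0.45 ± 0.19 (adjusted p = 0.632). The averaged change was -0.40 ± 0.09 (adjusted p = 0.0222), lost without C57BL/6 stroke array 3 (adjusted p = 0.0517).

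Gjb6 encodes connexin 30, a gap junction protein of astrocytes. Gjb6 read 8.30, 8.10, 8.21 and 8.18 in stroke arrays labelled TNF knockout, against 8.12, 8.16, 8.18 and 7.95 in naive arrays with that label. Gjb6 in C57BL/6 mice read 8.10, 8.29, 8.53 and 8.74 after stroke, against 7.64, 7.85, 7.99 and 7.89 in naive mice. In C57BL/6 mice all stroke readings lay above all naive readings, and in the arrays labelled TNF knockout the groups overlap. Gjb6 rose by 0.57 ± 0.11 (adjusted p = 0.0124) in C57BL/6 mice and differed by 0.10 ± 0.11 (adjusted p = 0.915) in the arrays labelled TNF knockout. The C57BL/6 call was lost without naive array 1 (0.50, adjusted p = 0.0520), without stroke array 3 (0.53, adjusted p = 0.0577) and with only the groups compared (adjusted p = 0.0784). The difference of the changes was -0.48 ± 0.16 (adjusted p = 0.541), and the averaged call was lost without naive C57BL/6 array 1 (adjusted p = 0.0562) or stroke array 3 of either label (0.0512 for TNF knockout and 0.0591 for C57BL/6).

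The remaining genes passed in none of the 3 stroke comparisons. Hspb1, a small heat shock protein gene, differed by 0.14 ± 0.06 (adjusted p = 0.279) averaged over both labels and by 0.14 in its second probe set. Aspg, an asparaginase gene, differed by 0.19 ± 0.06 (adjusted p = 0.106), with groups that do not overlap in the label TNF knockout. Amigo2, a neuronal and glial adhesion gene of the A1 class, differed by 0.15 ± 0.07 (adjusted p = 0.313). Of the A2 genes, S100a10, the partner of annexin A2, differed by 0.12 ± 0.08 (adjusted p = 0.46), and B3gnt5, a glycosyltransferase gene, by 0.13 ± 0.08 (adjusted p = 0.406). Cd109, a membrane protein that binds transforming growth factor beta, differed by 0.08 ± 0.07 (adjusted p = 0.637), and Slc10a6, a transporter of sulphated steroids, by 0.06 ± 0.09 (adjusted p = 0.79). Slc10a6 read 3.67 to 4.21 and B3gnt5 3.77 to 4.40 over all arrays, below the array medians. Genes that rose in the averaged fit could be dim as well. Of the 29 genes 16 averaged below the median gene (6.39), among them Ptx3 (5.36), Cd14 (5.12) and Steap4 (5.08). Whether such dim readings lay above background was not tested, as the summaries carry no detection call.

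**Figure D2:**
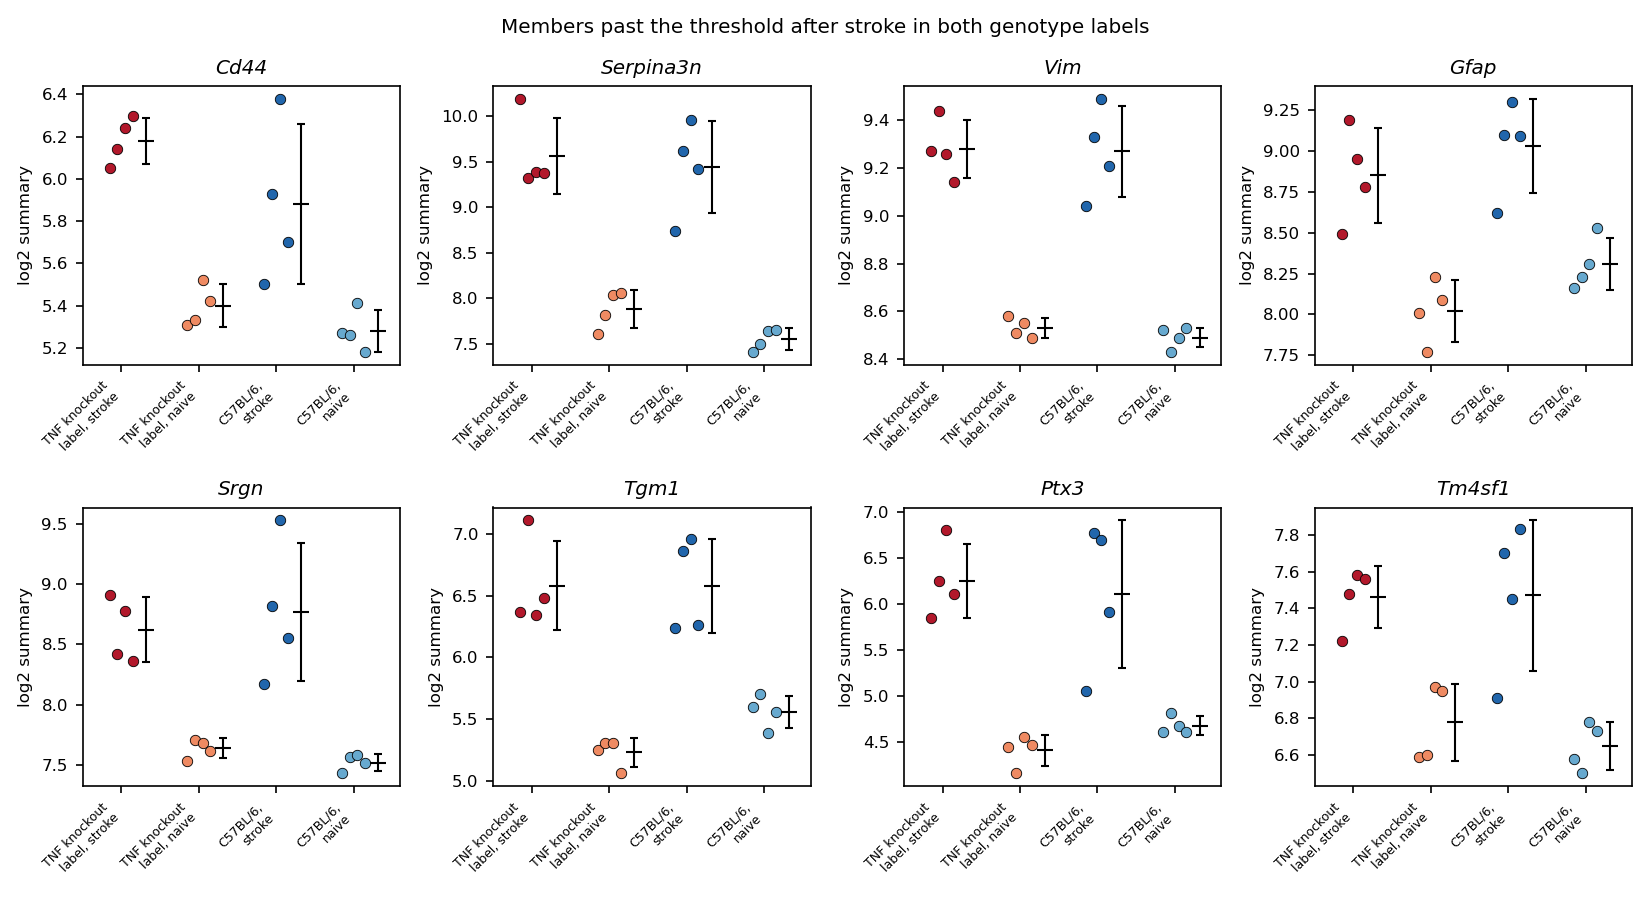
Log2 summaries of the 8 genes that passed the threshold in both genotype labels, by group, with 4 arrays per group as points and the mean ± SD beside them. Stroke points lie above naive points of the same label in every panel, and Vim has the narrowest naive groups.

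Counts by class followed the same comparison. Averaged over both labels, 5 of 10 A2 genes rose (median change 0.29), 2 of 5 A1 genes rose (median 0.37), and of the 14 pan-reactive or astrocytic genes 9 rose and 1 fell (median 0.47), where 1.78% of all genes rose and 1.03% fell. In the arrays labelled TNF knockout 4 A2, 1 A1 and 5 pan-reactive or astrocytic genes rose, against 0.537% of all genes. The C57BL/6 counts were 3, 1 and 7, against 1.34% of all genes. The A2 genes split into 5 that rose by 0.44 to 1.64 (Ptx3, Tgm1, Tm4sf1, Cd14 and Emp1) and 5 below the threshold with differences of 0.06 to 0.13 (B3gnt5, S100a10, Sphk1, Cd109 and Slc10a6). The A1 count rested on Srgn and Serping1, and Srgn was the A1 gene that passed in each label taken alone. The Serping1 change in C57BL/6 mice passed with a trended and robust variance (adjusted p = 0.0332) and without the lowest 33.3% of genes (0.0315), and that setting also passed Timp1 there (0.0325). Cd14 passed in the label TNF knockout with only the groups compared (adjusted p = 0.0376). The difference between the classes was not tested. Signs leaned upwards: 26 of 29 changes were above 0 in the TNF knockout label and 27 of 29 in C57BL/6 mice, against 49.3% and 48.4% of all genes.

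Stroke and naive arrays did not overlap, with stroke higher, for 15 genes in the label TNF knockout (2.80% of all genes) and for 13 in C57BL/6 mice (5.03% of all genes). With stroke lower, this held for Fabp7 in the label TNF knockout (3.07% of all genes) and for 0 genes of the list in C57BL/6 mice (3.23% of all genes). With stroke higher, the groups were apart in both labels for 12 genes (0.667% of all genes). They are the 8 genes past the threshold in both labels with Timp1, S1pr3, Cp and Serping1.

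The mean level of the list was close among the stroke arrays labelled TNF knockout and spread more among the C57BL/6 stroke arrays. The mean log2 value of the 29 genes was 6.61, 6.63, 6.65 and 6.64 in stroke arrays labelled TNF knockout, against 6.12, 6.11, 6.20 and 6.16 in naive arrays with that label. It was 6.46, 6.69, 6.82 and 6.59 in C57BL/6 stroke arrays, against 6.13, 6.06, 6.19 and 6.18 in naive C57BL/6 arrays. All stroke arrays lay above all naive arrays, and the C57BL/6 stroke arrays spread the most. C57BL/6 stroke array 1 was the lowest of its 4 for 16 of 29 genes, and array 3 was the highest for 13. Without array 1 the C57BL/6 changes were 2.12 for Serpina3n, 1.78 for Ptx3 and 0.86 for Gfap.

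**Figure D3:**
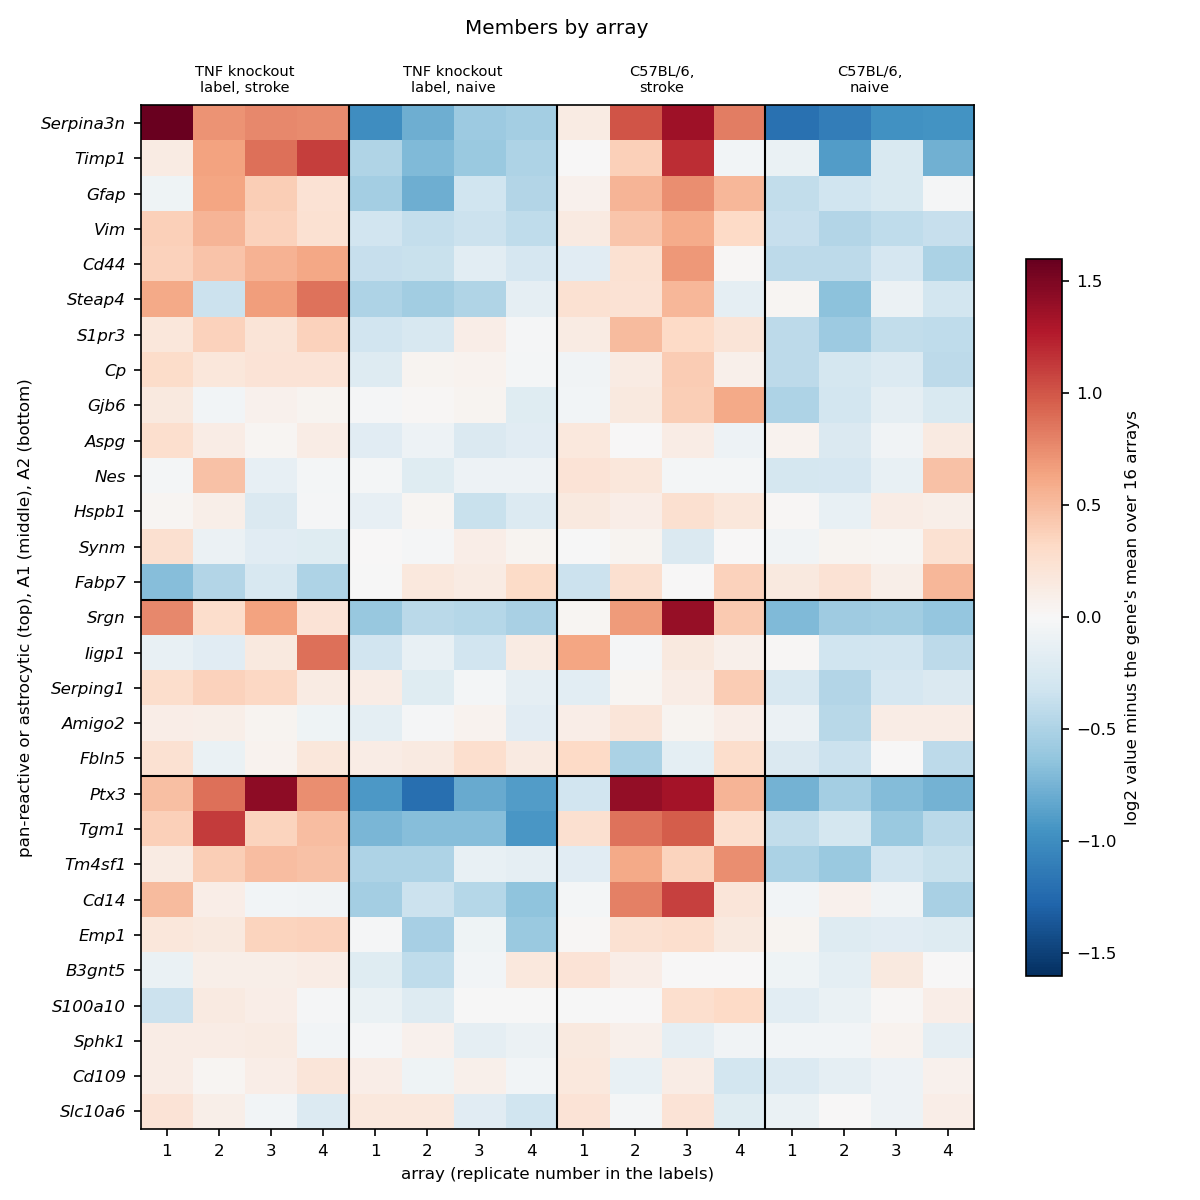
Log2 value minus the gene's mean over 16 arrays for the 29 genes (rows, by class) in each array (columns, grouped by label and condition), from blue (low) to red (high). C57BL/6 stroke array 1 is lower than arrays 2 and 3 for Serpina3n, Srgn and Ptx3, and Fabp7 runs opposite to the genes above it in the stroke arrays labelled TNF knockout.

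The comparison of the labels asks whether these genes differ between mice labelled TNF knockout and C57BL/6 mice. After stroke 0 of 29 genes passed (0.436% of all genes did). The smallest adjusted p was 0.0833, for Fabp7, which averaged 7.33 ± 0.17 in stroke arrays labelled TNF knockout and 7.88 ± 0.32 in C57BL/6 stroke arrays (SD, n = 4 each). That difference of -0.55 ± 0.13 (adjusted p = 0.0833) is past the threshold without C57BL/6 stroke array 1 (-0.69, adjusted p = 0.0115). It also passed with a trended and robust variance (adjusted p = 0.0371) and without the lowest 33.3% of genes by mean (0.0404). The highest adjusted p of that difference was 0.252 among fits that left out 1 array. Among the other alternatives it was 0.182, with only the groups compared. By limma 3 of 29 genes had an unadjusted p under 0.05, as did 2247 of all 19938 genes. In naive mice 0 of 29 passed (0.386% of all genes did), and the smallest adjusted p was 0.123, for S1pr3. An unadjusted p under 0.05 by limma was found there for 6 of 29 genes and for 3317 of all 19938 genes. S1pr3 averaged 6.14 ± 0.20 in naive arrays labelled TNF knockout and 5.81 ± 0.09 in naive C57BL/6 arrays. After stroke the groups of the 2 labels do not overlap for 0 genes that were higher in the label TNF knockout (3.04% of all genes) and for 1 that was lower, Hspb1 (2.76% of all genes). The naive groups do not overlap for 4 genes that were higher in the label TNF knockout (4.50% of all genes) and 2 that were lower (4.15% of all genes).

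The size of difference these arrays allow varied by gene. For Vim the difference after stroke was 0.01 ± 0.09 (adjusted p = 0.98), with a 95% interval of -0.18 to 0.20, and for Gfap it was -0.18 ± 0.15 (adjusted p = 0.702), with an interval of -0.48 to 0.13. Serpina3n had an interval of -0.30 to 0.56 and Ptx3 one of -0.40 to 0.69, so differences between the labels within those bounds could not be told from 0. The difference of the stroke changes passed for 0 of 29 genes and for 0 genes in all by limma (0% of all genes, 1480 at an unadjusted p under 0.05), with 3 of 29 at an unadjusted p under 0.05. These 3 were S1pr3 (-0.34 ± 0.14, adjusted p = 0.627), Gjb6 (-0.48 ± 0.16, adjusted p = 0.541) and Fabp7 (-0.45 ± 0.19, adjusted p = 0.632), which were chosen after their values were seen.

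**Figure D4:**
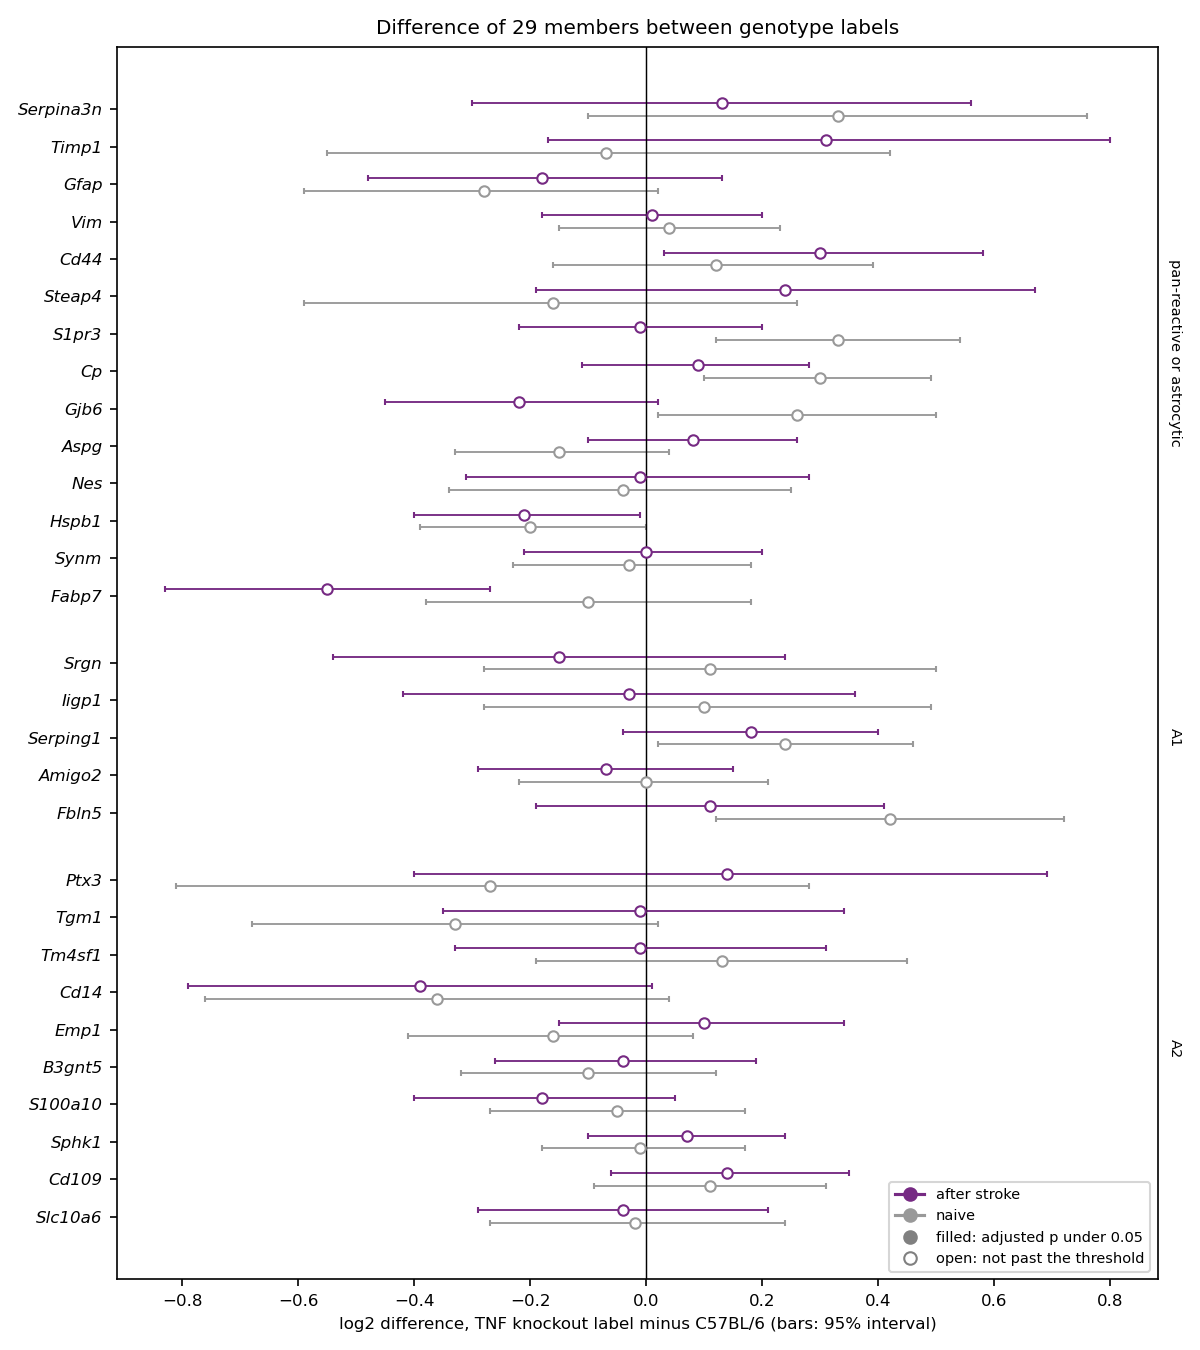
Log2 difference of the 29 genes between arrays labelled TNF knockout and C57BL/6 arrays, after stroke (purple, upper point) and in naive mice (grey, lower point), with 95% intervals. All points are open, as 0 genes passed the threshold, and the Fabp7 interval after stroke lies farthest below 0.

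Other genes of the same response were read from lists, chosen with earlier results of these data known. In the fit averaged over both labels, 1.78% of all genes rose and 1.03% fell. Of 7 further pan-reactive, A1 and A2 genes that were measured, 5 rose in that fit (median 0.58). They are Lcn2, an iron-scavenging protein (3.16 ± 0.22, adjusted p = 3.6e-08), the chemokine gene Cxcl10 (2.79 ± 0.20, adjusted p = 3.6e-08), Osmr, the oncostatin M receptor (1.17 ± 0.11, adjusted p = 2.4e-06), Ptgs2, the inducible cyclooxygenase (0.58 ± 0.10, adjusted p = 0.00148), and Fkbp5, a glucocorticoid-induced chaperone (0.32 ± 0.07, adjusted p = 0.0203). The other 2, Clcf1, a cytokine of the interleukin-6 family (0.16 ± 0.07, adjusted p = 0.22), and Psmb8, an immunoproteasome subunit (0.18 ± 0.07, adjusted p = 0.191), did not pass in that fit, and Clcf1 rose in the label TNF knockout (0.43 ± 0.10, adjusted p = 0.0374) in 10 of 16 fits that left out 1 array. That Clcf1 call was also lost with only the groups compared (adjusted p = 0.0879), after quantile normalization (0.132) and when the prefix was fitted (0.170). The Fkbp5 call did not hold without naive array 1 of the TNF knockout label (adjusted p = 0.0526) or with a term for the prefix (0.0518). Of 26 signals and receptors that activate astrocytes, 7 rose and 0 fell in the averaged fit (median 0.15), where 1.78% of all genes rose. Osmr, Socs3, the feedback inhibitor of this pathway (0.72 ± 0.08, adjusted p = 8e-06), Tnfrsf1a, a receptor for TNF (0.58 ± 0.07, adjusted p = 7.6e-05), and Stat3 (0.53 ± 0.07, adjusted p = 0.000151) had the smallest p-values. With all probe sets of Socs3 averaged, its C57BL/6 change of 0.62 became 0.32 and did not pass (adjusted p = 0.0728). Il6 (0.66 ± 0.12, adjusted p = 0.00311), Lif (0.37 ± 0.09, adjusted p = 0.0267) and Il1a (0.54 ± 0.14, adjusted p = 0.0393) are the other 3, and of the 16 fits that left out 1 array Lif passed in 9 and Il1a in 3. The receptor subunits Il6st (0.12 ± 0.05, adjusted p = 0.289) and Lifr (0.10 ± 0.07, adjusted p = 0.488) and the kinase gene Jak1 (0.0 ± 0.05, adjusted p = 0.993) did not pass.

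Resting astrocyte markers showed 0 of 16 past the threshold after stroke in the averaged fit (2.80% of all genes passed). Their changes ran from -0.20 to 0.08, with a median of -0.05. By group, their mean log2 values were 9.93 to 10 in stroke and 9.99 to 10.12 in naive arrays labelled TNF knockout, and 9.96 to 10.01 in stroke and 9.92 to 10.04 in naive C57BL/6 arrays. In the averaged fit an unadjusted p under 0.05 was found by limma for 3 of these 16 and for 3260 of all 19938 genes. Between the labels 1 of the 16 differed, Kcnj10, an inward rectifier potassium channel, by 0.64 ± 0.13 (adjusted p = 0.0337) in naive mice, and this call passed in 10 of 16 fits that left out 1 array. In that comparison of naive mice 0.386% of all genes passed.

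Markers of other cells moved in part with the list, and their part in its changes was not tested. Of all genes, 1.78% rose and 1.03% fell in the averaged fit, and 48.9% of changes were above 0. Averaged over both labels, 2 of 11 microglia and macrophage markers rose, Msr1, a scavenger receptor (1.03 ± 0.10, adjusted p = 1.7e-06), and the lysosomal gene Cd68 (0.84 ± 0.06, adjusted p = 2.5e-08), and 7 of 11 changes were above 0 (median 0.08). The same 2 rose in each label taken alone, and Ctss, the lysosomal protease cathepsin S, also rose in C57BL/6 mice (0.43 ± 0.10, adjusted p = 0.0393). The Ctss call held in 8 of 16 fits that left out 1 array (highest adjusted p = 0.122) and was lost with only the groups compared (0.0888). After stroke Cd68 was lower in the arrays labelled TNF knockout than in C57BL/6 mice (-0.38 ± 0.08, adjusted p = 0.034), as was C1qc, a subunit of complement C1q on the list of activating signals (-0.65 ± 0.11, adjusted p = 0.00565). Of the 16 fits that left out 1 array, Cd68 passed in 10 and C1qc in 16. In this comparison 0 of 11 microglia and macrophage changes were above 0 (median -0.24), against 47.4% of all genes. The microglia and macrophage markers had a mean log2 value of 6.47 to 6.61 in stroke and 6.37 to 6.54 in naive arrays labelled TNF knockout, and 6.65 to 6.89 in stroke and 6.44 to 6.58 in naive C57BL/6 arrays. Of 13 neutrophil and monocyte markers 4 rose, the lysozyme gene Lyz2 (0.96 ± 0.12, adjusted p = 9.5e-05), Clec4d (0.75 ± 0.15, adjusted p = 0.00817), Cxcr2 (0.70 ± 0.15, adjusted p = 0.0147) and Retnlg (0.35 ± 0.07, adjusted p = 0.0111), and 11 of 13 changes were above 0 (median 0.28). The mean of these markers was 3.97 to 4.33 in stroke and 3.73 to 3.79 in naive arrays labelled TNF knockout. In C57BL/6 mice that mean was 3.84 to 4.41 after stroke and 3.81 to 3.92 in naive mice. No array value is 0, so absence cannot be read from these summaries.

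Of 11 endothelial markers 1 rose, the lipid transporter gene Mfsd2a (0.47 ± 0.08, adjusted p = 0.0024), and of 12 pericyte and fibroblast markers 1 fell, Rgs5 (-0.37 ± 0.08, adjusted p = 0.0166). These counts are from the averaged fit, where 1.78% of all genes rose and 1.03% fell. Endothelial markers averaged 6.80 to 6.84 in stroke and 6.82 to 6.98 in naive arrays labelled TNF knockout, and 6.92 to 7.16 in stroke and 6.77 to 7.01 in naive C57BL/6 arrays. Of 11 neural stem and progenitor markers, a cell type that also makes Nes and Fabp7, 1 fell, Tubb3, a tubulin gene of neurons (-0.27 ± 0.06, adjusted p = 0.0157). No marker passed among 12 of neurons and 11 of the oligodendrocyte lineage. Before adjustment the limma p was under 0.05 for 3 and 1 of them, and for 3260 of all 19938 genes. After stroke the oligodendrocyte genes Cnp (-0.46 ± 0.08, adjusted p = 0.00503) and Olig1 (-0.44 ± 0.09, adjusted p = 0.0238) and the endothelial gene Cldn5 (-0.54 ± 0.11, adjusted p = 0.0396) were lower in the arrays labelled TNF knockout than in C57BL/6 mice. Without each array in turn, Cnp passed in 16 of 16 fits, Olig1 in 11 and Cldn5 in 5. Of the changes in this comparison, 2 of 11 oligodendrocyte (median -0.29) and 1 of 11 endothelial (median -0.17) were above 0. Over all genes 47.4% were above 0.

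**Figure D5:**
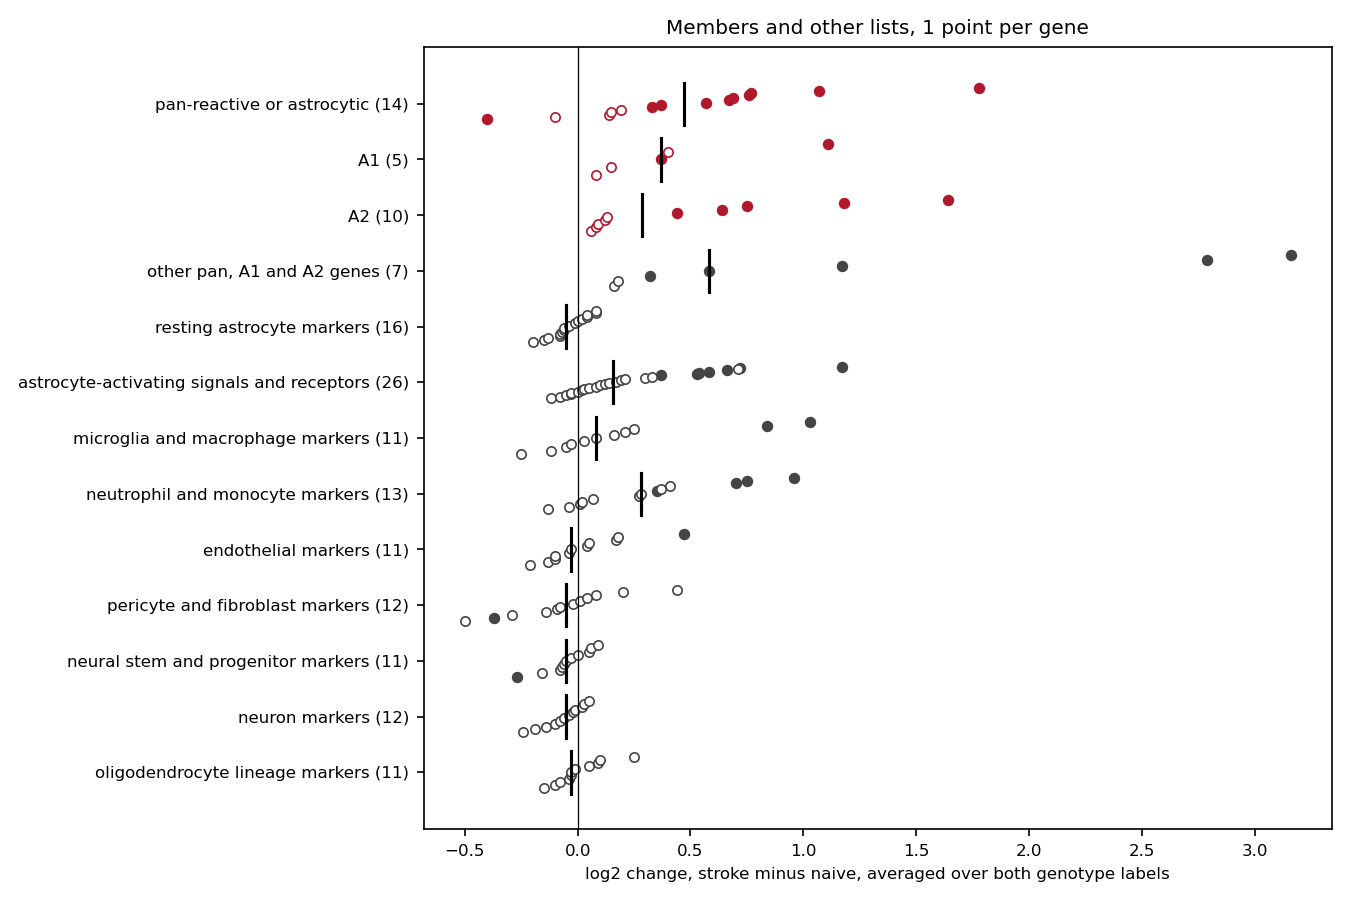
Log2 change, stroke minus naive, averaged over both genotype labels, with 1 point per gene for the 3 classes (red) and for other lists (grey), filled where adjusted p was under 0.05 and with a bar at the median of each list (number of genes in brackets). Resting astrocyte, neuron and oligodendrocyte markers hold no filled point, with medians of -0.05, -0.05 and -0.03.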

How the data were processed

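Whole-brain RNA was measured on 16 arrays (Affymetrix Mouse Gene 1.0 ST). The deposited values are log2 summaries of 28944 probe sets, taken as the authors deposited them; RMA, GCRMA, Partek and GCOS are named per the submitters' processing notes, and versions and order are not given in the sources used here. No detection p-values were used. Platform annotation gave 1 symbol to 21789 probe sets, several to 1621 and none to 5534; the probe set with the highest mean stood for each of 19938 genes (999 had more than 1).

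Groups came from the sample labels. limma (version 3.58.1, R 4.3.3) fitted a mean for each of the 4 groups over all 16 arrays (12 residual and 7.52 prior degrees of freedom), with 6 two-sided contrasts and Benjamini-Hochberg adjustment over all genes. The fit was tested on simulated data. Python 3.11.15 with pandas 2.3.3 made the tables and promoter motif counts.

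Members and lists were chosen with earlier results of these data known, and 130 of the 140 entries of the 10 other lists were measured. The text names all members, Tnf, and for each other list the genes past the threshold in a contrast or, where more than 4 pass, the 4 with the smallest p; further list genes, and arrays singled out, were chosen after their values were seen. Alternatives were quantile normalization, median centring, a filter that left out the dimmest 33.3% of genes, averaging of probe sets, a trended and robust variance, only the groups compared, a replicate block, the name prefix, an adjusted p under 0.01, and leaving out each array.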

Additional observations from a re-analysis of the deposited data

Results flagged for a closer look

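Of 116 groups of 4 arrays (29 genes in 4 groups), 8 held 1 array whose gap to its nearest neighbour exceeded 0.829 of the group's range, the 95% critical value of Dixon's test for 4 samples. Chance flags about 1 in 20 groups.

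Among stroke arrays labelled TNF knockout, Serpina3n read 10.19 in array 1 against 9.32 to 9.38 in the others, and without it the change in that label was 1.48. Nes read 5.79 in array 2 against 5.20 to 5.30, Sphk1 read 6.08 in array 4 against 6.25 to 6.26, and B3gnt5 read 4.07 in array 1 against 4.27 to 4.30. In C57BL/6 stroke arrays Synm read 6.76 in array 3 against 6.99 to 7.03.

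In naive C57BL/6 arrays S1pr3 read 5.68 in array 2 against 5.84 to 5.86, Serping1 read 6.51 in array 2 against 6.72 to 6.75, and Emp1 read 5.55 in array 1 against 5.29 to 5.32. The cause of these readings was not tested.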

How the results depend on the processing

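The averaged stroke comparison called 17 genes, and 15 to 17 when each array was left out in turn. At an adjusted p under 0.01 it lost Steap4 (0.0136), Cd14 (0.0115), Fabp7 (0.0222) and Gjb6 (0.0249). Over all genes its count of 559 was 217 at that threshold. In the arrays labelled TNF knockout the count of 11 was 6 at an adjusted p under 0.01 and 7 to 12 with 1 array left out, the lowest without stroke array 4. Over all genes the count of 128 was 54 at an adjusted p under 0.01 and 69 without that array. In C57BL/6 mice the count of 11 was 7 at an adjusted p under 0.01 and 7 to 14 with 1 array left out, the lowest without stroke array 3. Over all genes the count of 334 was 76 at an adjusted p under 0.01 and 107 without that array. Between the labels after stroke the count of 0 was 1, Fabp7, with the lowest 33.3% of genes left out, with a trended and robust variance, with the replicate block, and 0 to 1 with 1 array left out (1 without C57BL/6 stroke array 1). Of the comparisons of single genes under an alternative, 4122 kept their side of the threshold, 59 lost the call and 17 gained it. Reversal of direction was counted only where a gene passed in the main or the alternative fit, and was found for 0. Small differences that passed in neither fit could change sign, such as Timp1 between the naive labels (-0.19 to 0.07 with 1 array left out). The cause was not tested. Replicate numbers were not shown to pair the arrays: 24 same-number pairs correlated at -0.0746 to 0.34, 10 of them over 0.1, and 7 of 16 arrays correlated best with their own number. With the replicate block the gene list gave 12, 12 and 17 calls (TNF knockout label, C57BL/6, averaged). The block added Steap4 in the TNF knockout label (adjusted p = 0.0317), Timp1 in C57BL/6 mice (0.0461) and Fabp7 between the labels after stroke (0.0221), and the calls of Clcf1 (0.0504) and Lyz2 (0.0932) in the TNF knockout label did not pass with it. With the block all genes gave 559 calls in C57BL/6 mice (334 without it) and 141 in naive mice between the labels (77 without it). Over all genes, C57BL/6 stroke calls were 98 with only the groups compared, 516 with a trended and robust variance, 536 without the lowest 33.3% of genes, and 107 to 639 with 1 array left out (without C57BL/6 stroke array 3 and 1). With the prefix as a term, all-gene calls numbered 72, against 128, in the arrays labelled TNF knockout and 332, against 559, averaged. Arrays per group, unknown detection and the missing sham operation limit what small changes can show.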
